A study of Mus musculus with 12 samples.

Results

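The 9 genes Aifm2, Gch1, Dhodh, Vkorc1l1, Acsl3, Acsl4, Lpcat3, Sat1 and Pebp1 act on ferroptosis and lipid peroxidation by routes that do not need the lipid hydroperoxide reductase GPX4. They were picked by gene name from the 54532 genes of the deposited expression table. Each of the 9 reached the level required for testing, as did 12740 genes in all (an FPKM, or fragments scaled by gene length and library size, of at least 1 in at least 3 of 12 libraries). The set holds 4 suppressors (Aifm2, Gch1, Dhodh, Vkorc1l1), 4 drivers (Acsl4, Lpcat3, Sat1, Pebp1) and Acsl3, which stands in neither list.

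Ferroptosis is a form of cell death in which iron drives the peroxidation of polyunsaturated fatty acids held in membrane phospholipids. Drivers load those fatty acids into membranes or promote their oxidation, and suppressors keep radical-trapping quinones and pterins in their reduced form. In the colon the epithelium meets heme from food and from mucosal bleeding, and heme oxygenase-1, encoded by Hmox1, opens the heme ring and frees its iron.

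RNA was sequenced from colonoids, organoids grown from mouse colonic epithelial stem cells, in 4 groups of 3 libraries. Control colonoids carried floxed Hmox1 alleles (Hmox1 fl/fl), and the others, labelled Hmox1 KO /Vil1 Cre, carried in addition a Cre recombinase driven by the promoter of the epithelial gene Vil1, so that deletion is limited to epithelial cells. Each genotype was exposed to vehicle or to hemin, an oxidised form of heme, at a dose and for a time that the sources used here do not give for the sequenced cultures. The third library of the labelled KO hemin group carries the genotype Hmox1 fl/fl /Vil1 Cre in its label. Nothing says that libraries of a group came from separate mice or cultures, so p-values measure only the spread between these libraries.

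Hmox1, the gene meant to be deleted, was measured in every library. Control vehicle libraries held 7.62, 6.85 and 7.90 FPKM of Hmox1, and labelled KO vehicle libraries held 3.14, 2.11 and 2.31. Under hemin the control libraries reached 503, 483 and 382 FPKM, and the labelled KO libraries reached 1279, 1392.5 and 1271. Hemin raised Hmox1 in both genotypes, by 5.75 in controls and by 8.55 in labelled KO colonoids on the log2 scale (adjusted p = 2.5e-10 and 7.1e-12). Hmox1 was lower in the labelled KO group under vehicle (log2 fold change −1.27 ± 0.12 SE, adjusted p = 1.2e-05) and higher there under hemin (1.53 ± 0.12, adjusted p = 3.3e-06), which goes against the label. The values count fragments over the whole gene, and transcripts that lack a deleted exon cannot be told apart from intact ones in them. The group is called labelled KO throughout, and every direction between genotypes rests on that label.

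The epithelial label held against its markers. The 7 epithelial markers, led by Krt8, summed to between 5591 and 5634 FPKM in labelled KO vehicle libraries and between 7261 and 9843 in the others. Of these 7, 4 were lower in labelled KO colonoids under vehicle, 6 rose with hemin there and 4 had a positive interaction, the directions seen for Gch1, Lpcat3 and Sat1. With FPKM rescaled to the same sum in each library (TPM), these counts were 1, 3 and 0, and with Gm23935 left out of the sums 4, 4 and 0. The 6 fibroblast markers summed to at most 0.0791 FPKM and the 4 endothelial markers to at most 0.614. The 6 immune markers summed to between 1.02 and 5.20 FPKM, most of it Cd68, and the 5 tuft cell markers to at most 0.308. Markers of epithelial cell types differed between the groups. The 7 enteroendocrine markers summed to 37.6, 43.8 and 46.2 FPKM in control vehicle and to 564, 590.2 and 562 in labelled KO vehicle libraries, with Pyy the most abundant in the latter. The 7 goblet markers, led by Tff3, summed to between 1571 and 1832 FPKM in control vehicle, 1041 and 1403 in control hemin, 1886 and 1978 in labelled KO vehicle and 468 and 534 in labelled KO hemin libraries. Of these 7, 2 were higher and 3 lower in labelled KO colonoids under vehicle (1 and 0 under TPM, 2 and 3 without Gm23935 in the sums). The 7 proliferation markers, led by Pcna, summed to 258, 234 and 239.95 FPKM in control vehicle, to 90.8, 99.2 and 104 in control hemin, to 333, 329.8 and 332 in labelled KO vehicle and to 162, 182 and 170.4 in labelled KO hemin libraries.

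Of 6 colonocyte markers, 3 rose and 3 fell with hemin in controls and 2 rose and 3 fell in labelled KO colonoids, and their sum followed Car1, at 2185, 2212 and 1991 FPKM in control vehicle and 4420, 3983 and 6351 in control hemin libraries. Car1 stood at 1343, 1316 and 1282 FPKM in labelled KO vehicle and 3073, 2671 and 2803 in labelled KO hemin libraries, while 4 of the 6 markers were higher and 2 lower in labelled KO colonoids under vehicle (median 1.16). Of 5 tested stem cell markers, 4 fell with hemin in each genotype (medians −0.62 and −1.19; in controls 2 fell and 1 rose without control hemin 3) and 3 were higher in labelled KO colonoids under vehicle (median 0.87). The part of these shifts in the values of the 9 genes was not tested, and in such bulk libraries fewer cells of a type and less RNA per cell cannot be told apart.

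The libraries held between 11648801 and 25101868 fragments, recovered as whole numbers from the FPKM and the gene lengths. The third control hemin library stood apart. Its root mean square log2 distance from the other libraries of its group was 0.484, the highest of the 12, and its share of mitochondrial fragments, 4.92%, was also the highest. For the 9 genes, calls that change without it are given with and without it. A single gene, Gm23935, took 16.8% of the FPKM sum in control vehicle 1, 29.0% in control hemin 1 and 21.0% in labelled KO hemin 2, against at most 2.81% in each of the other libraries.

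Most of the 9 genes differed between genotypes already under vehicle, where 3 of the 4 drivers lay lower in the labelled KO colonoids. In control colonoids hemin raised 2 of the 9 genes (Gch1 and Lpcat3; 23.2% of all genes tested rose) and lowered 2 (Dhodh and Acsl3; 26.7% of all genes fell). In labelled KO colonoids it raised 3 (Gch1, Lpcat3 and Sat1; 29.9% of all genes) and lowered 2 (Aifm2 and Dhodh; 30.4%). Under vehicle, 2 genes were higher in the labelled KO colonoids (Dhodh and Vkorc1l1; 17.4% of all genes) and 5 were lower (Gch1, Acsl3, Acsl4, Lpcat3 and Sat1; 16.8%). Under hemin, 2 were higher (Gch1 and Lpcat3; 19.7%) and 2 lower (Aifm2 and Acsl4; 14.7%). A gene passed where its adjusted p was under 0.05. Each genotype comparison shares a group of libraries with each hemin comparison, so the counts are not independent of each other.

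Changes past 2-fold were few. On the scale of log2(FPKM + 1), Gch1 and Lpcat3 passed that bound with hemin in labelled KO colonoids, where 12.9% of all genes did, and none of the 9 passed it in control colonoids, where 8.11% did. Acsl3 and Sat1 passed it between genotypes under vehicle (6.80% of all genes), and none did under hemin (6.01%). The difference between genotypes in the hemin response, the interaction term of the same fit, was positive for 4 genes (Gch1, Acsl3, Lpcat3 and Sat1; 13.3% of all genes) and negative for 1 (Aifm2; 10.5%). Sat1 alone had an interaction past 2-fold, against 5.13% of all genes. In all, 5 of 9 genes passed the interaction test, and 8 of 9 did so once the third control hemin library was left out, when the count over all genes went from 3031 to 4726. Under TPM, Sat1 alone kept a passing interaction (0.91, adjusted p = 0.028), and the other 4 kept their sign at −0.92 for Aifm2, 0.85 for Gch1, 0.70 for Acsl3 and 0.81 for Lpcat3. With Gm23935 left out of the TPM sums all 5 passed.

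**Figure D1:**
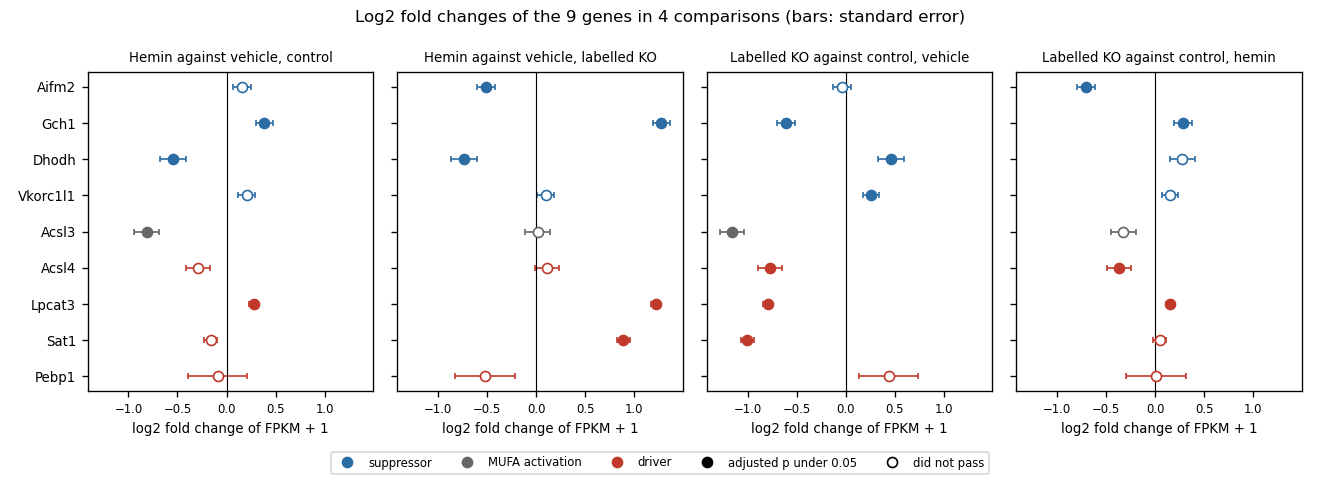
Log2 fold changes of FPKM + 1 (horizontal axis) of the 9 genes (vertical axis) in 4 comparisons, with suppressors in blue, Acsl3 in grey and drivers in red; bars are standard errors and filled points passed at an adjusted p under 0.05. Acsl4, Lpcat3 and Sat1 lie left of 0 between genotypes under vehicle, at −0.77, −0.79 and −1.003.

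Aifm2 encodes FSP1, a reductase at membranes that regenerates ubiquinol and reduced vitamin K. The gene (ENSMUSG00000020085, chr10:61715263-61739260, plus strand) gave 3.35, 3.69 and 4.31 FPKM in control vehicle libraries and 4.28, 4.23 and 4.47 in control hemin libraries. In labelled KO colonoids it gave 3.53, 3.50 and 3.92 FPKM under vehicle and 2.36, 1.91 and 2.57 under hemin. The labelled KO hemin libraries were thus the lowest 3 of the 12, and the control vehicle group overlapped the control hemin and the labelled KO vehicle groups. Hemin lowered Aifm2 in the labelled KO colonoids (log2 fold change −0.51 ± 0.09 SE, adjusted p = 0.00074), while in controls the difference was 0.16 ± 0.09 (adjusted p = 0.19). The responses differed, with an interaction of −0.67 ± 0.13 (adjusted p = 0.0042). Between genotypes the difference was −0.04 under vehicle (adjusted p = 0.80) and −0.70 under hemin (adjusted p = 0.00016). These levels rest on 140 to 272 fragments a library. Aifm2 was the only one of the 4 suppressors whose interaction was negative and passed.

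The other genes of ubiquinone supply gave a mixed picture. Of 13 ubiquinone synthesis genes, hemin raised 5 and lowered 4 in control colonoids, with a median log2 fold change of −0.05, and raised 2 and lowered 6 in labelled KO colonoids, with a median of −0.09. Coq8a, a kinase-like protein of the synthesis complex, had 1.88 ± 0.139 FPKM (SD, n = 3) in control vehicle, 3.95 ± 0.541 in control hemin, 4.08 ± 0.288 in labelled KO vehicle and 1.27 ± 0.225 in labelled KO hemin libraries. Like Aifm2, it was lowest under hemin in the labelled KO colonoids, and its interaction was −1.95 ± 0.14 (adjusted p = 6.0e-06). Pdss1, which builds the isoprenoid tail, had log2 fold changes with hemin of −1.001 in controls and −1.15 in labelled KO colonoids (adjusted p = 0.00021 and 4.9e-05). Coq7, a hydroxylase, fell by 0.54 and by 1.04 (adjusted p = 9.8e-05 and 4.3e-07). Coq10b, a ubiquinone-binding protein, rose instead, from 9.29 ± 0.729 to 13.3 ± 4.56 FPKM in controls (0.43, adjusted p = 0.049; under TPM 0.27, adjusted p = 0.43) and from 6.75 ± 0.325 to 15.2 ± 0.307 in labelled KO colonoids (1.07, adjusted p = 0.00021). Without control hemin 3 its rise in controls was 0.18 (adjusted p = 0.036). Under TPM, 2 genes were raised in control colonoids instead of 5.

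Gch1 encodes GTP cyclohydrolase 1, the entry enzyme of tetrahydrobiopterin synthesis, whose product traps lipid radicals. The gene (ENSMUSG00000037580, chr14:47153895-47189413, minus strand) gave 6.16, 7.06 and 6.70 FPKM in control vehicle and 9.27, 9.33 and 8.34 in control hemin libraries. Labelled KO libraries gave 4.07, 3.90 and 4.07 FPKM under vehicle and 11.5, 9.63 and 12.5 under hemin. No group overlapped another, and the order ran from labelled KO vehicle through control vehicle and control hemin to labelled KO hemin. Hemin raised Gch1 in controls by 0.39 ± 0.09 on the log2 scale (adjusted p = 0.0037) and in labelled KO colonoids by 1.28 ± 0.09 (adjusted p = 4.3e-07), or 2.79-fold in FPKM. Under TPM the rise in controls did not pass (0.23, adjusted p = 0.41), nor did the difference between genotypes under vehicle (−0.54, adjusted p = 0.075), and both passed under TPM without Gm23935 (0.31 and −0.62). The interaction was 0.89 ± 0.12 (adjusted p = 0.00043). Under vehicle Gch1 was lower in labelled KO than in control colonoids, by −0.61 (adjusted p = 0.00027). Under hemin it was higher by 0.29 (adjusted p = 0.027), a call that held in 14 of 22 alternatives and was lost, among others, under TPM (adjusted p = 0.37), under TPM without Gm23935 (0.075), with no filter (0.052), with only the groups compared (0.13), without control hemin 3 (0.058), labelled KO hemin 1 (0.086) or labelled KO hemin 3 (0.11).

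Pts, the step after Gch1 in the pterin pathway, did not follow it. It rose with hemin in controls by 0.35 (adjusted p = 0.025) and stood at 6.54 ± 0.562 FPKM under vehicle and 5.58 ± 0.593 under hemin in labelled KO colonoids. Its interaction, −0.55 ± 0.16 (adjusted p = 0.031), had the opposite sign to that of Gch1, and under hemin it was lower in labelled KO than in control colonoids (−0.73, adjusted p = 0.00057). Under TPM the rise in controls (0.20, adjusted p = 0.40) and the interaction (−0.74, adjusted p = 0.075) did not pass, under TPM without Gm23935 the interaction did (−0.71, adjusted p = 0.013), and without control hemin 3 the rise did not (0.29, adjusted p = 0.068).

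Dhodh encodes dihydroorotate dehydrogenase, an enzyme of the inner mitochondrial membrane that reduces ubiquinone while making orotate for pyrimidines. The gene (ENSMUSG00000031730, chr8:109591343-109608673, minus strand) was the lowest of the 9 in FPKM in 3 of the 4 groups. Control libraries gave 2.84, 2.31 and 2.42 FPKM under vehicle and 1.57, 1.84 and 0.907 under hemin. The labelled KO colonoids held 3.87, 3.90 and 3.79 FPKM under vehicle and 1.93, 2.13 and 1.71 under hemin. In each genotype every hemin library lay below every vehicle library, and the hemin groups overlapped each other. Hemin lowered Dhodh in controls (−0.55 ± 0.13, adjusted p = 0.0052) and in labelled KO colonoids (−0.73 ± 0.13, adjusted p = 0.00059), to 0.499 times the vehicle FPKM in the latter. The interaction was −0.19 ± 0.19 (adjusted p = 0.53), so the responses were not shown to differ with all libraries in, and it was −0.35 (adjusted p = 0.041) without control hemin 3. Dhodh was higher in labelled KO colonoids under vehicle (0.47 ± 0.13, adjusted p = 0.018). That call was lost when control vehicle 2 (adjusted p = 0.066), control vehicle 3 (0.057), labelled KO vehicle 1 (0.051) or labelled KO vehicle 2 (0.054) was left out. Under hemin the genotype difference was 0.28 (adjusted p = 0.13), with 0.40 (adjusted p = 0.032) without control hemin 2 and 0.11 (adjusted p = 0.35) without control hemin 3. The lowest library, control hemin 3, held 67 Dhodh fragments.

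Most other genes of pyrimidine synthesis moved the same way as Dhodh. Of 4 such genes, hemin lowered 3 in each genotype, with medians of −0.73 and −0.94, and raised 1, Ctps2, in controls, a call lost under TPM (0.07, adjusted p = 0.79) and under TPM without Gm23935 (0.15, adjusted p = 0.14). Cad, which carries the first steps, went from 15.5 ± 1.69 to 3.93 ± 0.602 FPKM in controls (log2 fold change −1.75, adjusted p = 2.2e-07) and from 30.1 ± 0.849 to 5.09 ± 0.393 in labelled KO colonoids (−2.35, adjusted p = 1.2e-08). Umps, which turns orotate into UMP, fell by 0.42 and by 1.04 (adjusted p = 0.00067 and 5.1e-07). All 4 were higher in labelled KO than in control colonoids under vehicle, as Dhodh was, and 2 of them were under TPM and all 4 under TPM without Gm23935. The 7 proliferation markers moved with these genes: all 7 fell with hemin in each genotype, and their part in the Dhodh values was not tested.

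Vkorc1l1 encodes a vitamin K epoxide reductase that returns vitamin K to its radical-trapping hydroquinone. The gene (ENSMUSG00000066735, chr5:129941970-129986692, plus strand) gave 8.72, 8.36 and 7.90 FPKM in control vehicle and 9.70, 8.40 and 11.3 in control hemin libraries. Labelled KO libraries gave 10.1, 10.1 and 10.2 FPKM under vehicle and 11.3, 10.7 and 10.8 under hemin. The control hemin group overlapped each of the other 3, which did not overlap each other, and the group means ran from 8.33 to 10.9 FPKM. The difference with hemin was 0.20 ± 0.09 in controls (adjusted p = 0.069) and 0.10 ± 0.09 in labelled KO colonoids (adjusted p = 0.35), and neither passed with all libraries in. Without control hemin 2 the change in controls was 0.30 (adjusted p = 0.0055). Under vehicle the labelled KO colonoids held more Vkorc1l1 (0.26 ± 0.09, adjusted p = 0.037), a call that held in 13 of 22 alternatives and was lost, among others, under TPM (adjusted p = 0.12), with no filter (0.060), without control vehicle 2 (0.083), control vehicle 3 (0.12), any 1 of the labelled KO vehicle libraries (0.085, 0.089 and 0.095) or labelled KO hemin 3 (0.053). Under hemin the difference was 0.15 (adjusted p = 0.20), and 0.25 (adjusted p = 0.0087) without control hemin 3.

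Among 5 genes of vitamin K and quinone reduction, Vkorc1, the closest relative of Vkorc1l1, was scarce, with 0.739 ± 0.427 FPKM in control vehicle and 1.32 ± 0.226 in labelled KO vehicle libraries. Vkorc1l1 therefore carried most of the epoxide reductase transcript per kilobase. Nqo1, a quinone reductase, went from 33.4 ± 2.71 to 286 ± 35.6 FPKM with hemin in controls and from 13.0 ± 0.778 to 364 ± 25.5 in labelled KO colonoids (log2 fold changes 3.06 and 4.71, adjusted p = 3.2e-09 and 5.3e-11). Ggcx, the carboxylase that uses reduced vitamin K, was higher in labelled KO colonoids under vehicle by 0.57 (adjusted p = 0.00015) and under hemin by 0.40 (adjusted p = 0.0020; under TPM 0.45, adjusted p = 0.13, and without Gm23935 in the sums 0.40, adjusted p = 0.0065). Of the 5 genes, 2 rose and 1 fell with hemin in controls, and 3 rose and 1 fell in labelled KO colonoids, where under TPM 1 rose and 1 fell.

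**Figure D2:**
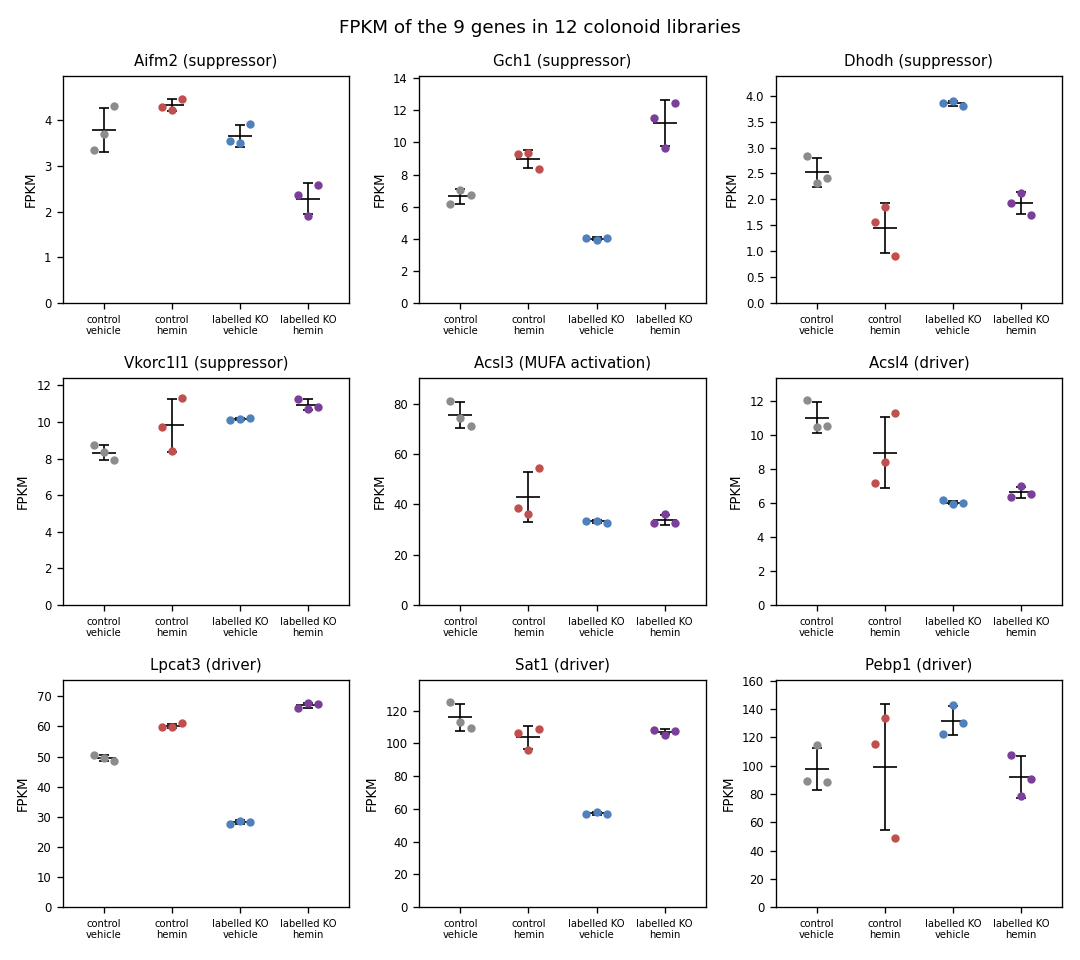
FPKM (vertical axis, from 0) of each of the 9 genes in the 4 groups (horizontal axis); points are the 3 libraries of a group, and the bar and whiskers are their mean and SD. Gch1 spans 3.90 to 12.5 FPKM with no overlap between groups, and Pebp1 holds the low control hemin library at 48.7 FPKM.

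Acsl3 activates monounsaturated fatty acids, which displace oxidisable ones from phospholipids, and Acsl4 activates arachidonic and adrenic acid for the same lipids. Acsl3 (ENSMUSG00000032883, chr1:78657825-78707743, plus strand) gave 81.1, 74.3 and 71.0 FPKM in control vehicle and 38.4, 36.4 and 54.4 in control hemin libraries. The labelled KO colonoids held 33.6, 33.6 and 32.6 FPKM under vehicle and 32.6, 36.0 and 32.5 under hemin. The control vehicle libraries stood above all others, and the 2 labelled KO groups overlapped. Hemin lowered Acsl3 in controls (−0.82 ± 0.13, adjusted p = 0.00029) but left it at 0.02 ± 0.13 in labelled KO colonoids (adjusted p = 0.91), with an interaction of 0.83 ± 0.18 (adjusted p = 0.0061). Under vehicle it was lower in labelled KO than in control colonoids by −1.16 ± 0.13 (adjusted p = 3.2e-05), or 0.440 times the control FPKM. Under hemin the difference was −0.32 (adjusted p = 0.069), with −0.43 (adjusted p = 0.021) without control hemin 2 and −0.15 (adjusted p = 0.095) without control hemin 3. Utp14b lies within Acsl3 on the same strand with up to 1025 fragments a library, and how fragments in their shared stretch were assigned is not given in the sources used here.

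Acsl4 (ENSMUSG00000031278, chrX:142317993-142390535, minus strand) gave 12.05, 10.5 and 10.5 FPKM in control vehicle and 7.20, 8.39 and 11.3 in control hemin libraries. Labelled KO libraries gave 6.15, 5.95 and 5.98 FPKM under vehicle and 6.37, 6.97 and 6.50 under hemin. Every labelled KO library lay below every control library. Acsl4 was lower in labelled KO colonoids under vehicle (−0.77 ± 0.12, adjusted p = 0.00051) and under hemin (−0.37 ± 0.12, adjusted p = 0.038). The vehicle call held in all 22 alternatives, and the hemin call in 9 of 22, with adjusted p between 0.0064 and 0.26. It was lost, among others, under TPM (adjusted p = 0.26), with no filter (0.083) and with only the groups compared (0.15). Leaving out any 1 of 9 libraries also ended it, at adjusted p from 0.052 without control vehicle 2 to 0.11 without labelled KO hemin 1, and without control hemin 3 the difference was −0.21 (adjusted p = 0.054). For Acsl4 the difference with hemin was −0.29 in controls (adjusted p = 0.071) and 0.12 in labelled KO colonoids (adjusted p = 0.44). The fall in controls passed under TPM without Gm23935. Without control hemin 3, the library with 11.3 FPKM, the change in controls was −0.45 (adjusted p = 0.00062) and the interaction went from 0.40 (adjusted p = 0.12) to 0.57 (adjusted p = 0.0020).

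Acsl3 exceeded Acsl4 in every library, most in the control vehicle group. The FPKM of Acsl3 was 6.73, 7.11 and 6.75 times that of Acsl4 in control vehicle and 5.34, 4.34 and 4.83 times in control hemin libraries. In labelled KO libraries the factor was 5.46, 5.64 and 5.45 under vehicle and 5.11, 5.16 and 5.00 under hemin. The log2 ratio of Acsl4 to Acsl3 was accordingly −2.67 ± 0.04 (SD, n = 3, with 1 added to each FPKM) in control vehicle, −2.14 ± 0.14 in control hemin, −2.29 ± 0.03 in labelled KO vehicle and −2.19 ± 0.03 in labelled KO hemin libraries. Each control vehicle library had a higher factor than the 9 other libraries. The factor, formed within a library, does not depend on scaling between libraries. Acsl3 and Acsl4 followed each other over the 12 libraries (Pearson r = 0.931, a description over 4 groups with no test).

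Other enzymes of the monounsaturated arm resembled Acsl3 under vehicle. There 3 of 3 tested genes were lower in labelled KO colonoids (median −0.88), and with hemin 2 of 3 fell in controls (median −0.66). Scd1, the stearoyl-CoA desaturase that makes oleate, went from 39.6 ± 1.83 to 8.64 ± 0.995 FPKM with hemin in controls and from 21.1 ± 1.02 to 6.68 ± 0.451 in labelled KO colonoids (log2 fold changes −2.08 and −1.53, adjusted p = 1.8e-08 and 7.6e-08). Scd2 fell in controls by 0.66 (adjusted p = 1.7e-05) and stood at 423 ± 6.78 FPKM under vehicle and 470.1 ± 23.2 under hemin in labelled KO colonoids. Mboat1, an acyltransferase that puts monounsaturated chains into phospholipids, was close to Sat1 in pattern, with 114 ± 3.41, 120.5 ± 11.1, 50.7 ± 1.31 and 107 ± 3.10 FPKM in the 4 groups in the order control vehicle, control hemin, labelled KO vehicle and labelled KO hemin. Its interaction was 0.98 ± 0.10 (adjusted p = 4.4e-05), and under TPM 0.85 (adjusted p = 0.086), where none of the 3 genes passed that test. With Gm23935 left out of the sums all 3 passed it, Mboat1 at 0.88 (adjusted p = 0.00020). Among 4 tested acyl-CoA synthetases outside the set, 1 was higher and 1 lower in labelled KO colonoids under vehicle (1 and 0 under TPM, 2 and 0 without Gm23935 in the sums). Acsl1 was higher there by 0.70 and under hemin by 0.80 (adjusted p = 1.4e-05 and 5.8e-06), opposite in sign to Acsl3 and Acsl4. Slc27a4 was the lower, as Acsl3 and Acsl4 were, with 13.7 ± 1.93, 23.5 ± 3.85, 10.4 ± 0.401 and 26.5 ± 1.81 FPKM in the same order. Acsl5, another long-chain synthetase, had 34.8 ± 1.35, 29.4 ± 1.58, 34.1 ± 0.887 and 40.03 ± 1.24 FPKM in the same order.

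Lpcat3 encodes the lysophospholipid acyltransferase that places polyunsaturated chains into phosphatidylcholine and phosphatidylethanolamine, and is abundant in intestinal epithelium. The gene (ENSMUSG00000004270, chr6:124663027-124704418, plus strand) gave 50.6, 49.4 and 48.5 FPKM in control vehicle and 59.9, 59.9 and 61.0 in control hemin libraries. The labelled KO colonoids held 27.5, 28.7 and 28.3 FPKM under vehicle and 66.1, 67.7 and 67.3 under hemin. The 4 groups were fully separate and each was tight, in the same order as for Gch1. Hemin raised Lpcat3 in controls by 0.28 ± 0.05 (adjusted p = 0.00042) and in labelled KO colonoids by 1.22 ± 0.05 (adjusted p = 4.5e-09), or 2.38-fold in FPKM. Under TPM the rise in controls was 0.09 and did not pass (adjusted p = 0.73), and without Gm23935 in the sums it was 0.17 and passed (adjusted p = 0.0092). The interaction of 0.94 ± 0.06 (adjusted p = 3.4e-06) had the lowest adjusted p of the 9 genes. Under vehicle Lpcat3 was lower in labelled KO colonoids (−0.79 ± 0.05, adjusted p = 1.7e-07). Under hemin it was higher by 0.15 (adjusted p = 0.024), a call that held in 14 of 22 alternatives. It was lost, among others, under TPM (adjusted p = 0.64), under TPM without Gm23935 (0.13), with only the groups compared (0.14), without control hemin 1 (0.058) or without labelled KO hemin 1, 2 or 3 (0.050, 0.064 and 0.077). The 3′ end of Lpcat3 overlaps Emg1 on the opposite strand, which held up to 1683 fragments a library. Whether the libraries kept the strand is not given clearly in the sources used here, so fragments from the overlap cannot be told apart.

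Several enzymes that supply or release polyunsaturated chains fell under hemin while Lpcat3 rose. Of 10 such genes, hemin raised 3 and lowered 6 in controls (median −0.30) and raised 2 and lowered 5 in labelled KO colonoids (median −0.42). Under TPM it raised 1 and lowered 5 in controls and raised 0 and lowered 5 in labelled KO colonoids, and without Gm23935 in the sums these were 3, 7, 2 and 6. Fads1 and Fads2, the desaturases on the way to arachidonic acid, fell in both. Fads1 went from 9.32 ± 0.531 to 1.34 ± 0.442 FPKM in controls and from 4.34 ± 0.108 to 0.458 ± 0.132 in labelled KO colonoids, with log2 fold changes of −2.16 and −1.88 (adjusted p = 2.0e-07 and 2.6e-07). Fads2 fell by 1.89 and by 1.98 (adjusted p = 1.2e-07 and 4.1e-08). Pla2g4a, a phospholipase that releases arachidonic acid, fell by 0.80 in controls and by 1.88 in labelled KO colonoids (adjusted p = 5.4e-05 and 5.7e-08). Lpcat2, a relative of Lpcat3, had a mean under 1 FPKM in 3 groups and had 4.07 ± 0.135 FPKM in labelled KO vehicle libraries, the group in which Lpcat3 was lowest. Those 3 libraries were enough to take it past the filter, so a fall of Lpcat2 from that group is not read as a result. The counts and medians above still hold it. Of 5 ether lipid genes, Tmem189, which introduces the vinyl ether bond of plasmalogens, rose with hemin by 0.56 in controls and by 1.24 in labelled KO colonoids (adjusted p = 0.0022 and 4.9e-06; under TPM the former was 0.42, adjusted p = 0.13, and without Gm23935 in the sums 0.51, adjusted p = 0.0070). The list counts were 1 higher and 2 lower in controls and 2 higher and 1 lower in labelled KO colonoids. Under TPM they were 0 and 1 in controls and 1 and 1 in labelled KO colonoids, and without Gm23935 in the sums 1 and 2 in each.

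Sat1 encodes spermidine/spermine N1-acetyltransferase, the step that sets polyamines on the way to breakdown, and promotes lipoxygenase-linked ferroptosis. The gene (ENSMUSG00000025283, chrX:155213132-155216449, minus strand) had the highest mean of the 9 in each control group and in labelled KO hemin. Pebp1 had the higher mean in labelled KO vehicle, and exceeded Sat1 in control vehicle 2 and in control hemin 1 and 2. The FPKM of Sat1 was 125, 113 and 109 in control vehicle and 106, 95.8 and 109 in control hemin libraries. Labelled KO libraries gave 57.2, 58.0 and 56.6 FPKM under vehicle and 108, 105 and 107 under hemin. The labelled KO vehicle group lay far below, at 0.494 times the control FPKM, and the hemin groups of both genotypes overlapped. Hemin raised Sat1 in labelled KO colonoids by 0.89 ± 0.07 (adjusted p = 7.5e-07). In controls the difference was −0.16 ± 0.07 (adjusted p = 0.066), and −0.20 (adjusted p = 0.021) without control hemin 3. It also passed under TPM without Gm23935, and over the alternatives it ranged from −0.35 to −0.10. The interaction was 1.05 ± 0.09 (adjusted p = 2.3e-05), and between genotypes Sat1 differed by −1.003 ± 0.07 under vehicle (adjusted p = 5.6e-07) and by 0.05 ± 0.07 under hemin (adjusted p = 0.61). A near copy of Sat1, AC151299.1, held at most 2 fragments in any library.

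Most of the rest of the polyamine pathway did not share this pattern. Of 10 tested genes, hemin raised 3 and lowered 3 in controls and raised 5 and lowered 2 in labelled KO colonoids, and 1 was higher and 1 lower between genotypes under vehicle. Srm, spermidine synthase, fell by 1.19 in controls and by 1.24 in labelled KO colonoids (adjusted p = 5.7e-05 and 2.7e-05). Smox, spermine oxidase, was nearest to Sat1, with a difference of −0.82 between genotypes under vehicle (adjusted p = 0.0029), a rise of 0.49 with hemin in labelled KO colonoids (adjusted p = 0.027) and an interaction of 0.74 ± 0.24 (adjusted p = 0.044). Under TPM the rise (0.17, adjusted p = 0.56) and the interaction (0.63, adjusted p = 0.31) of Smox did not pass, nor did they without Gm23935 in the sums (0.29 and 0.65, adjusted p = 0.18 and 0.081). Paox, which oxidises the acetylated polyamines made by Sat1, fell with hemin by 0.65 and by 0.81 (adjusted p = 0.0011 and 0.00015). Under TPM the 5 genes raised in labelled KO colonoids became 0, and 2 when Gm23935 was left out of the sums. Without control hemin 3 the polyamine genes that passed the interaction test went from 1 to 5, with 4 positive and 1 negative.

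Pebp1 is a scaffold that turns 15-lipoxygenase toward membrane phospholipids. The gene (ENSMUSG00000032959, chr5:117282654-117287625, minus strand) gave 89.5, 115 and 88.4 FPKM in control vehicle and 115, 134 and 48.7 in control hemin libraries. The labelled KO colonoids held 123, 143 and 130 FPKM under vehicle and 108, 78.3 and 90.9 under hemin. The low value belongs to control hemin 3, the lowest of the 12, and the control hemin group overlapped each of the other 3. In the main fit with all 12 libraries no comparison passed for Pebp1. Its log2 fold changes were −0.09 with hemin in controls (adjusted p = 0.83), −0.52 with hemin in labelled KO colonoids (0.16), 0.44 between genotypes under vehicle (0.31) and 0.01 under hemin (0.99). Under TPM the fall with hemin in labelled KO colonoids passed, and it ranged from −0.41 to −0.86 over the alternatives. Without control hemin 3 the difference in controls was 0.35 (adjusted p = 0.064) and the other 3 passed. They were −0.52 with hemin in labelled KO colonoids (adjusted p = 0.0053), 0.44 between genotypes under vehicle (adjusted p = 0.021) and −0.43 between genotypes under hemin (adjusted p = 0.037). The interaction went from −0.43 (adjusted p = 0.53) to −0.87 (adjusted p = 0.0067).

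The lipoxygenases that Pebp1 and Sat1 are known to work with were near 0. Alox5, Alox12, Alox12e, Alox15, Alox8 and Aloxe3 stayed under 0.4 FPKM in every library and were not tested, and Alox12e was listed at 0 throughout. Alox15, the mouse 12/15-lipoxygenase, had at most 0.138 FPKM, in a control hemin library. Alox12b reached 1.26 FPKM in a control vehicle library and was not tested either. Por, the reductase that feeds electrons to cytochromes P450, went from 84.7 ± 5.80 to 99.1 ± 10.3 FPKM with hemin in controls (adjusted p = 0.075) and from 50.4 ± 2.48 to 89.7 ± 8.74 in labelled KO colonoids (0.81, adjusted p = 2.5e-05; under TPM 0.48, adjusted p = 0.067, and without Gm23935 in the sums 0.60, adjusted p = 0.00033). Cyb5r1, a reductase with the same role in lipid peroxidation, rose by 0.54 in labelled KO colonoids (adjusted p = 0.00020), which did not pass under TPM (0.25, adjusted p = 0.31) and did under TPM without Gm23935 (0.36, adjusted p = 0.0075). Ptgs2, often read as a marker of ferroptosis, went from 0.112 ± 0.0134 to 0.568 ± 0.164 FPKM in controls and from 0.554 ± 0.0813 to 13.5 ± 0.504 in labelled KO colonoids. It reached 1 FPKM in the labelled KO hemin libraries only, which alone took it past the filter, so no test is given for it.

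Set against each other, suppressors and drivers did not move as blocs. With hemin in controls the median log2 fold change was 0.18 over the 4 suppressors and −0.12 over the 4 drivers, beside −0.01 over all genes tested. With hemin in labelled KO colonoids the medians were −0.21 and 0.50, beside −0.0019. Between genotypes they were 0.11 and −0.78 under vehicle, beside 0.02, and 0.22 and 0.03 under hemin, beside 0.04. The interaction medians were −0.15 for suppressors and 0.67 for drivers, beside 0.02. Acsl4, Lpcat3 and Sat1 thus lay lower in labelled KO colonoids under vehicle, and of these only Acsl4 did under hemin, while Pebp1 passed in neither. Among the suppressors Gch1 had the pattern of Lpcat3, and Aifm2 and Dhodh fell with hemin in labelled KO colonoids. Under TPM the suppressor and driver medians were −0.57 and 0.18 with hemin in labelled KO colonoids, beside −0.31 over all genes. Between genotypes under vehicle they were then 0.26 and −0.68, beside 0.16. Some other medians were close to 0 and moved with the alternative. Without control hemin 3 the driver median was 0.0361 with hemin in controls and −0.0595 between genotypes under hemin, the latter −0.0239 under TPM without Gm23935, and the suppressor median with hemin in controls was 0.0193 under TPM. The medians describe genes chosen with results known and carry no test.

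Within the set, Gch1 and Lpcat3 were the most alike over the 12 libraries (Pearson r of log2(FPKM + 1) = 0.962), followed by Acsl3 and Acsl4 (0.931) and by Lpcat3 and Sat1 (0.891). Dhodh ran against Lpcat3 (−0.859) and Gch1 (−0.822). Over all genes tested, the 3 most like Lpcat3 were Coro2a (0.995), Ifngr2 (0.995) and Fkbp5 (0.994), and the 3 most like Gch1 were Rtn4 (0.991), Lgals3bp (0.991) and Cdipt (0.990). Sat1 was nearest to Daam1 (0.977), Xk (0.975) and Nfkbiz (0.974). For Acsl3 the list was Ifit1bl2 (0.989), Mospd2 (0.985) and Car13 (0.984), and for Acsl4 it was Zdhhc21 (0.984), Pibf1 (0.981) and Sh3kbp1 (0.967). Dhodh was nearest to Cog1 (0.978), Stmn1 (0.978) and Cish (0.977). Aifm2 had Prkcz (0.943), 2010320M18Rik (0.943) and Rnf186 (0.942), Vkorc1l1 had Tmem87a (0.959), Ufsp2 (0.951) and Ak3 (0.928), and Pebp1 had Ring1 (0.953), Bud23 (0.951) and Hdac5 (0.949). The points share 4 groups, so each r mostly describes group means.

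Other pathways that bear on lipid peroxides frame these values. Of 7 genes of the GPX4 axis, 7 rose with hemin in each genotype, with medians of 1.15 and 2.76, and Gpx4 went from 99.5 ± 4.87 to 176 ± 23.6 FPKM in controls and from 83.7 ± 1.71 to 229.9 ± 13.3 in labelled KO colonoids. Of 9 NRF2 target genes, 8 rose in each genotype. Aifm2 shared neither pattern. Of 10 genes that clear lipid aldehydes, 8 rose in each genotype, led by Aldh1a1 at 2.95 and 3.85 on the log2 scale (adjusted p = 3.7e-09 and 2.2e-10). Under TPM 5 GPX4 axis, 6 NRF2 target and 6 aldehyde genes rose in controls, and 7, 8 and 7 in labelled KO colonoids. Without Gm23935 in the sums 7, 8 and 8 rose in each genotype. Of 7 late sterol genes, 6 were lower in labelled KO colonoids under vehicle, as Acsl3, Acsl4, Lpcat3 and Sat1 were. With hemin 4 fell in controls, and 3 rose and 1 fell in labelled KO colonoids. Under TPM 2 were lower under vehicle, and with hemin in labelled KO colonoids 0 rose and 3 fell. With Gm23935 left out of the sums 6 were lower under vehicle, and 2 rose and 3 fell.

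Promoter sequences are shown for the genes that moved together, Gch1, Lpcat3 and Sat1 on one side and Acsl3 and Acsl4 on the other. RefSeq windows on GRCm38.p6 were matched by symbol for 8 of the 9 genes, and Dhodh had no entry. A window is the 250 bases before the RefSeq start, which can lie inside the annotated gene. All 250 bases do so for Aifm2, and 139, 77 and 61 do for Vkorc1l1, Lpcat3 and Pebp1. In these whole windows, none of the 8 held TGACNNNGC, the core of the antioxidant response element, on either strand, against 10.2% of 32851 promoters. None held TGATGNAAN, a core shared by C/EBP and ATF4 elements, against 3.44%. CCAAT, searched for on both strands after the windows had been read, was in 5 of the 8 whole windows (Gch1, Vkorc1l1, Acsl3, Lpcat3 and Pebp1), against 33.8% of all promoters. The only match of Vkorc1l1 lies inside its annotated gene. A match describes letters and not a bound site, and bases inside the annotated gene are left off the sequences shown. Capitals mark CCAAT, and each sequence runs 5′ to 3′ on the strand of its gene.
Gch1, chr14:47189414-47189663, minus strand: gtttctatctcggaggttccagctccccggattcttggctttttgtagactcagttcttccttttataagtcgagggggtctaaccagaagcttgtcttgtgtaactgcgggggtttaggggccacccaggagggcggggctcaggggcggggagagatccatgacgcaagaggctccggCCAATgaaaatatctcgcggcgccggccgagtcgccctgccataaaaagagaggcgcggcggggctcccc
Lpcat3, chr6:124662854-124663026, plus strand: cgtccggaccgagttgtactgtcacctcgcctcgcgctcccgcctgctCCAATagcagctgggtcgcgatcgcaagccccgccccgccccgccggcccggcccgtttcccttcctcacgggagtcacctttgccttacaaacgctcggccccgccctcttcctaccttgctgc
Sat1, chrX:155216450-155216699, minus strand: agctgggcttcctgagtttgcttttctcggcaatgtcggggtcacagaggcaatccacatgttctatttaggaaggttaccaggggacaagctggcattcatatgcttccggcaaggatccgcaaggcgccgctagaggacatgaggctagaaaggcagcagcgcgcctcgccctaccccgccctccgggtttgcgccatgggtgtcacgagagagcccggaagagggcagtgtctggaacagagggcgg
Acsl3, chr1:78657575-78657824, plus strand: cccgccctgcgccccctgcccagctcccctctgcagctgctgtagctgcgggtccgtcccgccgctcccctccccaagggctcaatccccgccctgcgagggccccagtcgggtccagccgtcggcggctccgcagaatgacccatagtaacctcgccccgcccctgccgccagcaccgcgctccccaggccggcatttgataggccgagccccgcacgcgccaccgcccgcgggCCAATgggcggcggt
Acsl4, chrX:142390536-142390785, minus strand: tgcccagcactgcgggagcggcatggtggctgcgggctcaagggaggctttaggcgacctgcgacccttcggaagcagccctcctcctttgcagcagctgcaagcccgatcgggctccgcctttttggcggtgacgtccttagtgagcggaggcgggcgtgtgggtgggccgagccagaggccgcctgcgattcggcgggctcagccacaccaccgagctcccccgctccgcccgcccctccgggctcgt
The Gch1 window holds CCAAT from 70 to 66 bases before the start, and the Acsl3 window from 15 to 11 bases before it. Lpcat3 has it from 202 to 198 bases before the RefSeq start, a count that includes the 77 bases of the annotated gene left off above. Lpcat3 has 2 further matches in those 77 bases. Sat1 and Acsl4 have none. The GC share of the whole windows was 59.2% for Gch1, 59.6% for Sat1, 70.0% for Lpcat3, 70.8% for Acsl4 and 75.6% for Acsl3, beside a median of 52.4% over all promoters.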

How the data were processed

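RNA of 12 colonoid libraries (4 groups of 3) was sequenced after poly-T selection. The deposited FPKM values were made by the authors, who name fastp, HISAT2 2.0.5 and featureCounts 1.5.0-p3 on mm10. They are scaled for library size and gene length, and their median-of-ratios factor was 1.00869 in each of the 12 libraries. The values thus already stood on that scale between libraries, and rescaling to TPM takes them off it. Genes with at least 1 FPKM in at least 3 libraries were kept (12740 of 54532). Log2(FPKM + 1) was fitted with limma 3.58.1 in R 4.3.3 as 4 group means with trended empirical Bayes, and p-values were adjusted over all 12740 genes for each of 5 comparisons by the method of Benjamini and Hochberg. The fit was tested on simulated data. Fragments, recovered from FPKM and gene length, numbered 11648801 to 25101868 a library. A gene with few of them, such as Dhodh with 67 in control hemin 3, is counted less precisely. Pebp1 had at least 1005 in each control hemin library, and its values there were 99.2 ± 44.8 FPKM (SD, n = 3). The 9 genes and the pathway lists were chosen with earlier results of these data known. Named genes are the 9, Hmox1, cell type markers, up to 4 genes of each pathway list with the largest absolute log2 fold change among those that passed, genes whose role is needed to read one of the 9, genes that overlap one of the 9, and the 3 tested genes most correlated with each. Gm23935 was named after its values were seen. Alternatives were other pseudocounts, filters, scalings, limma-voom, a replicate block, fits of only the groups compared and each library left out in turn. Figures were drawn with matplotlib 3.10.9 in Python 3.11.15.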

Additional observations from a re-analysis of the deposited data

Results flagged for a closer look

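For 5 genes the response to hemin differed between genotypes by the interaction term of the fit. Aifm2 differed by −0.67 ± 0.13 (log2 fold change ± SE, adjusted p = 0.0042), with a fall only in labelled KO colonoids. Gch1 differed by 0.89 ± 0.12 (adjusted p = 0.00043) and Lpcat3 by 0.94 ± 0.06 (adjusted p = 3.4e-06), with the larger rise in labelled KO colonoids. Acsl3 differed by 0.83 ± 0.18 (adjusted p = 0.0061), with a fall only in control colonoids. Sat1 differed by 1.05 ± 0.09 (adjusted p = 2.3e-05), with a rise only in labelled KO colonoids. For Gch1, Acsl3, Lpcat3 and Sat1 the labelled KO vehicle libraries were also lower than the control vehicle libraries, so the term holds a difference under vehicle. With FPKM rescaled to TPM, the terms of Aifm2 (−0.92), Gch1 (0.85), Acsl3 (0.70) and Lpcat3 (0.81) kept their sign and no longer passed, and that of Sat1 did (0.91, adjusted p = 0.028). All 5 passed once Gm23935 was left out of the TPM sums. Whether cell type composition bears on them was not tested.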

How the results depend on the processing

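Each gene and comparison was refitted in up to 22 other ways, 1 of which (TPM without Gm23935) was chosen after seeing the data. Scaling by the median of ratios, also among them, had the factor 1.00869 in each of the 12 libraries, so a call that held under it adds nothing. Of the log2 fold changes of the 9 genes, 886 kept direction and side of the threshold, 49 no longer passed, 19 came to pass and 17 changed sign. Of those of pathway genes, 3678 kept both, 271 no longer passed and 6 changed sign. A mean FPKM of at least 5 leaves no value for Aifm2 and Dhodh, and fits of only the groups compared leave none for the interaction. Where no cause is shown by the construction of the alternative, the cause was not tested. Of the 9 genes, Dhodh and Aifm2 had the lowest fragment numbers, from 67 and from 140 a library.

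In the order hemin in control, hemin in labelled KO, genotypes under vehicle, genotypes under hemin and interaction, 6359, 7694, 4362, 4383 and 3031 genes passed. A mean FPKM of at least 5, which tests fewer genes, gave 4235, 5114, 2690, 2765 and 1956, and the 2-fold bound gave 1033, 1648, 866, 766 and 654. Rescaling to TPM gave 4000 for hemin in control, 5899 for hemin in labelled KO, 2269 and 2109 between genotypes and 909 for the interaction. Without Gm23935 in the sums it gave 6417, 7647, 4464, 4292 and 3005. Only the groups compared gave 2728 between genotypes under hemin. Leaving out 1 library gave 2363 to 4726 for the interaction.

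Of the 9 genes, 4, 5, 7, 4 and 5 passed. The 2-fold bound left 0, 2, 2, 0 and 1, TPM left 2 for hemin in control, 1 between genotypes under hemin and 1 for the interaction, and a mean of at least 5 left 3 for hemin in labelled KO. Between genotypes under hemin, no filter left 2, only the groups compared left 1, and leaving out 1 library gave 1 to 6. Leaving out 1 library gave 5 to 8 for the interaction.

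Among passing genes, the share that was higher was 46.4% for hemin in control, 49.6% for hemin in labelled KO, 50.9% between genotypes under vehicle and 55.9% for the interaction. Under TPM these were 21.4%, 20.2%, 64.9% and 34.3%, and under TPM without Gm23935 they were 35.2%, 32.1%, 59.8% and 38.7%. The median of all genes under TPM was −0.19 for hemin in control and −0.31 for hemin in labelled KO. Under TPM the interactions of Aifm2 (−0.92, adjusted p = 0.083), Gch1 (0.85, 0.092), Acsl3 (0.70, 0.18) and Lpcat3 (0.81, 0.057) kept their sign and did not pass, while that of Sat1 passed in every alternative.

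Changes of sign were as follows. With hemin in labelled KO colonoids, TPM gave −0.23 for Vkorc1l1, −0.32 for Acsl3, −0.20 for Acsl4, −0.0941 for Ggcx, −0.11 for Acsl1, −0.11 for Acsl5 and −0.19 for Cyp51. TPM without Gm23935 gave −0.12 for Vkorc1l1, −0.21 for Acsl3, −0.0882 for Acsl4, −0.0015 for Acsl1 and −0.0762 for Cyp51. Between genotypes under vehicle, Aifm2 was 0.0922 under TPM and 0.0162 under TPM without Gm23935. Between genotypes under hemin, TPM without Gm23935 gave −0.0048 for Sat1 and −0.0430 for Pebp1. Leaving out 1 library gave −0.37 to 0.35 for Pebp1 with hemin in control and −0.43 to 0.29 between genotypes under hemin. The same gave −0.0294 to 0.0421 for Acsl3 with hemin in labelled KO, −0.103 to 0.0396 for Aifm2 between genotypes under vehicle and −0.0068 to 0.0860 for Sat1 between genotypes under hemin. None of these values had passed with all libraries in, except those of Ggcx, Acsl1, Acsl5 and Cyp51.

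The mean log2 ratio of Acsl4 to Acsl3 was −2.78, −2.46 and −2.35 with no pseudocount and −2.77, −2.44 and −2.33 with a pseudocount of 0.1 in control vehicle, labelled KO vehicle and labelled KO hemin libraries.

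Replicate numbers did not pair the libraries. Deviations from group means correlated at −0.0425 on average (−0.327 to 0.179) over 18 pairs of the same number and at 0.0232 over 36 other pairs. With the replicate number as a block 5975, 7362, 3976, 3947 and 2561 genes passed, 1 of the 9 passed between genotypes under hemin, where Gch1, Acsl4 and Lpcat3 no longer did, and Vkorc1l1 no longer passed under vehicle.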
